A study of Mus musculus with 12 samples.

Results

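The genes described here were 35 genes of the p53 pathway in the fetal mouse testis. They comprised Trp53, its relative Trp73, the p53 inhibitors Mdm2 and Mdm4, and known direct targets of p53, found by gene symbol and grouped by role as arrest, apoptosis, repair and metabolism genes. The list was drawn up with earlier results of these data known, so its counts below are descriptions and not independent evidence. All 35 were found among the 24470 genes of the count table. Bulk RNA sequencing had been performed on whole testes at E14.5, with 3 testes pooled per library. The 6 control pools carried the genotype Nr2f2 f/f, that is, floxed alleles of the nuclear receptor gene Nr2f2 and no Cre. The 6 conditional knockout (cKO) pools carried Wt1 CreER x Nr2f2 f/f, the same floxed alleles with a tamoxifen-inducible Cre driven from the Wt1 locus, which is active in somatic progenitors of the gonad. Both genotypes received tamoxifen at E11.5 and E12.5, so the deletion was induced during gonad formation and did not reach every cell. The Cre allele at the Wt1 locus was present only in the cKO pools. An effect of Cre or of that allele and an effect of losing Nr2f2 therefore cannot be told apart here.

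The protein p53 is a transcription factor that is made continuously and kept low by Mdm2 and Mdm4, which bind it and, in the case of Mdm2, mark it for destruction. DNA damage and other stresses free p53 from these inhibitors without requiring more Trp53 mRNA, and the stabilised protein then binds paired copies of a short DNA half-site near its targets. Those targets stop the cell cycle, trigger apoptosis, assist DNA repair and adjust metabolism, and Mdm2 is itself a target. In the fetal testis, p53 is known for its part in the death of germ cells with damaged DNA.

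Values below are CPM, reads of a gene per 1000000 counted reads of its library after scaling with edgeR's TMM factors, and each library held 7044531 to 59404778 counted reads. Nr2f2 was at 175.5 ± 8.87 CPM in control pools and at 75.9 ± 24.5 CPM in cKO pools (mean ± SD, n = 6 each), and all cKO pools lay below all control pools. Sertoli, Leydig and germ cell markers were detected in every library, and none of them was at 0. However, 4 libraries stood apart: control pool 1 and cKO pools 3, 5 and 6 had 304 to 891 CPM of Xist, against 5.15 to 7.68 CPM in the other 8, and they also had the highest levels of the ovarian gene Foxl2 (14.6 to 47.2 CPM, against at most 1.3). In cKO pools 5 and 6, Stra8, which marks entry into meiosis, was at 87.7 and 73.6 CPM, against 2.58 to 10.2 CPM in the other 10 pools. Results are therefore also given for the 8 libraries with low Xist and for the 10 libraries without cKO pools 5 and 6. In RNA from whole testes, more cells that express a gene and more RNA of it per cell cannot be told apart.

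Among the p53 genes, 10 were more abundant in cKO testes and none was less abundant, by edgeR's quasi-likelihood test at an adjusted p under 0.05. The 10 were Cdkn1a, Eda2r, Bbc3, Dcxr, Zmat3, Ccng1, Sesn2, Trp53inp1, Pidd1 and Ei24. They made up 29.4% of the 34 members that had enough counts to be tested, while 3.28% of all 15572 genes tested were called higher and 4.85% were called lower. The log2 fold change was positive for 26 members (76.5%, against 50.6% of all genes) and negative for 8, and its median was 0.22 over the members and 0.00 over all genes. In 7 of the 10 called genes (20.6% of the members tested) every cKO pool lay above every control pool, which was the case for 2.39% of all genes tested, and no member had the opposite pattern, against 3.13% of all genes. The remaining 24 tested members did not pass the threshold, and 7 of them (Mdm2, Bax, Pmaip1, Fas, Tnfrsf10b, Perp and Rrm2b) had a positive fold change and 1 (Phlda3) a negative one at an unadjusted p under 0.05. At that unadjusted threshold 17 members (50%) were higher and 1 (2.94%) was lower, against 12.1% and 13.2% of all genes. With DESeq2, 12 members were called higher, the 10 named above with Fas and Pmaip1, against 5.28% of all genes. Trp73 was not tested because only 1 to 17 reads per library were assigned to it.

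**Figure D1:**
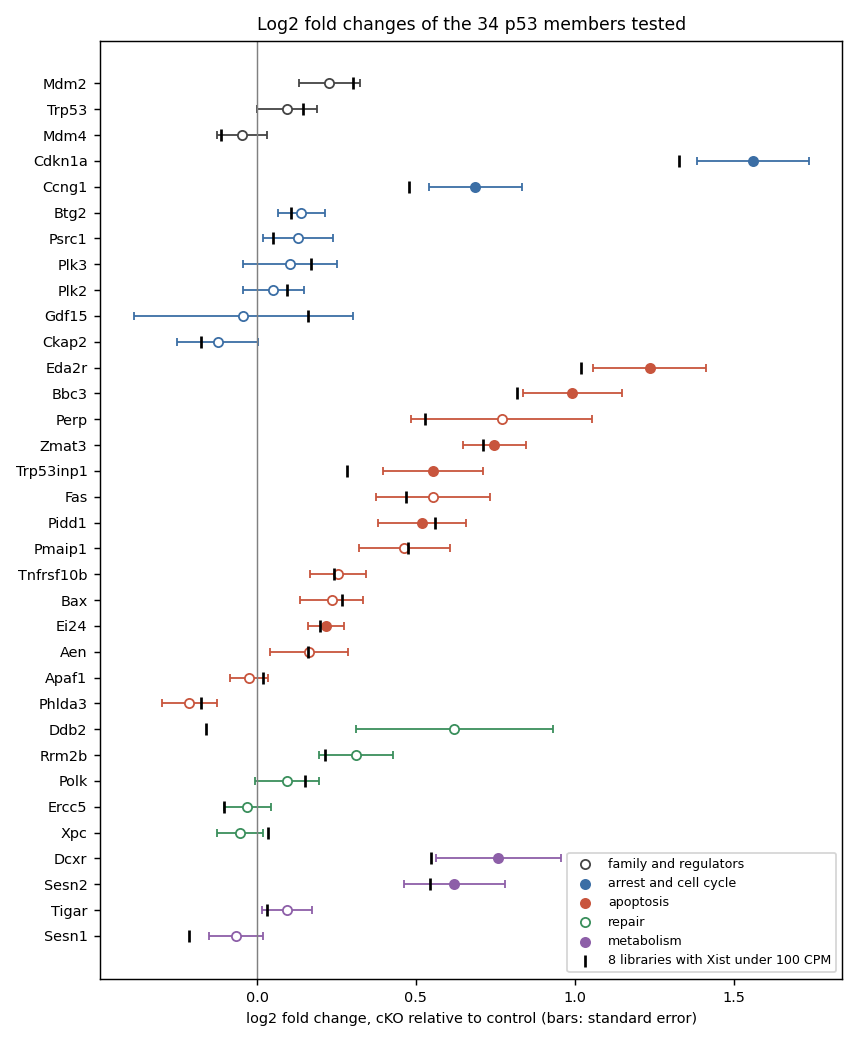
Log2 fold changes of the 34 tested p53 genes in cKO relative to control testes, grouped by role, with bars for the standard error from edgeR; filled circles passed an adjusted p of 0.05, open circles did not, and black ticks give the value in the 8 libraries with low Xist. All filled circles lie to the right of 0, from Ei24 at 0.22 to Cdkn1a at 1.56.

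The transcript of p53 itself was present at a similar level in the groups. Trp53 (Entrez 22059, chr11:69580359-69591873, mm10, plus strand) ranged from 66.8 to 105 CPM in control pools with a median of 93.7, and from 88.3 to 103 CPM in cKO pools with a median of 95.1. The cKO range thus fell within the control range, in which pools 5 and 6 were the lowest. The log2 fold change was 0.09 with a 95% interval of -0.11 to 0.30 (edgeR, adjusted p = 0.551), so its upper bound lay below the fold change of 9 of the 10 called genes.

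The inhibitors of p53 did not pass the test. Mdm2, the ubiquitin ligase and classical feedback target, was at 59.3 to 93.6 CPM in control pools (median 80.0) and at 84.7 to 97.2 CPM in cKO pools (median 89.7). Only cKO pools 1 and 2 exceeded the highest control, and control pools 5 and 6 were again the lowest. Its log2 fold change was 0.23 ± 0.10 (SE, edgeR, adjusted p = 0.158), with a 95% interval of 0.02 to 0.43. Mdm4, which masks the activation domain of p53, stood at -0.05 on the log2 scale relative to control (edgeR, adjusted p = 0.737). Trp73, a p53 relative, stayed at 0.407 CPM or below in all 12 libraries.

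Among the 8 arrest and cell cycle genes, 2 rose and 6 did not pass the test. The strongest response of all members was that of Cdkn1a, which encodes p21, an inhibitor of cyclin-dependent kinases and the main effector of p53-dependent arrest. Cdkn1a (Entrez 12575, chr17:29090979-29100722, mm10, plus strand) was at 7.77, 8.66, 8.93, 6.97, 7.80 and 7.81 CPM in control pools 1 to 6, and at 19.6, 14.6, 19.2, 26.1, 34.7 and 28.5 CPM in cKO pools 1 to 6. Control pools were tightly grouped, cKO pools were spread more widely, and the lowest cKO pool still lay well above the highest control. The gene rose 2.95-fold, a log2 fold change of 1.56 ± 0.18 (SE, edgeR, adjusted p = 0.000174).

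The region before 1 of the 2 RefSeq starts of Cdkn1a is shown because it was the one promoter window of any member that held a full p53 site. The window of the other start, chr17:29093519-29093818, held no half-site. The bases shown are the 250 at chr17:29090729-29090978 (GRCm38.p6, plus strand), read 5′ to 3′. In capitals are the 2 exact matches to the p53 half-site, starting 73 and 51 bases before the RefSeq start of this window and separated by 12 bases. The bases right after the latter match, tgacatgttc, miss the half-site only at their opening base and are left in lower case.
Cdkn1a: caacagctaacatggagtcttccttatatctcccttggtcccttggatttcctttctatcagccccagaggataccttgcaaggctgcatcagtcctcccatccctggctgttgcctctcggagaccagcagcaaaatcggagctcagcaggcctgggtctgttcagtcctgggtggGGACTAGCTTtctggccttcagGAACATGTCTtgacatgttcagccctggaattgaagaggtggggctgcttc

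Ccng1, encoding cyclin G1, a target that recruits a phosphatase to Mdm2, was the other arrest gene that rose. It was at 55.9 to 108 CPM in control pools (median 76.9) and at 103 to 154 CPM in cKO pools (median 124), a 1.61-fold change (log2 fold change 0.69 ± 0.15 SE, edgeR, adjusted p = 0.0102). The groups met only at cKO pool 2, the lowest of its group, which lay below control pool 5. The other genes of the group did not pass. Btg2 (antiproliferative), Psrc1 (a spindle protein), Plk2 and Plk3 (stress-responsive polo-like kinases), Gdf15 (a secreted stress cytokine) and Ckap2 (a spindle protein) had log2 fold changes between -0.12 and 0.14, with edgeR adjusted p from 0.245 to 0.955. Of these, Ckap2 had the lowest value, -0.12 ± 0.13 (SE): control pools ranged from 59.1 to 119 CPM around a median of 83.0, and the cKO pools lay inside that range, at 69.0 to 84.5 CPM around 81.1. Gdf15 was measured least precisely, since it rested on 5 to 58 reads per library.

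**Figure D2:**
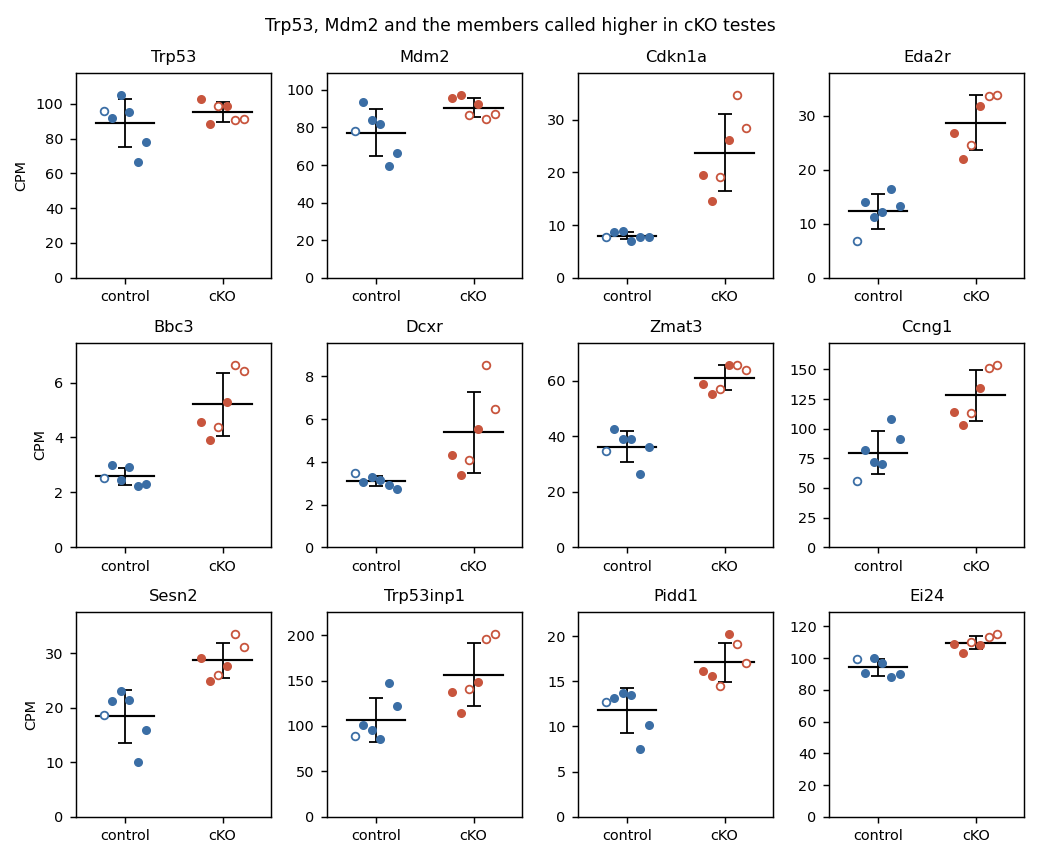
CPM of Trp53, Mdm2 and the 10 p53 genes called higher in cKO testes, with 1 point per pool (6 control, blue; 6 cKO, orange), open points for the 4 libraries with Xist above 100 CPM, and black lines for the mean and SD. The groups are separate for Cdkn1a, Eda2r, Bbc3, Zmat3, Sesn2, Pidd1 and Ei24 and overlap for Trp53, Mdm2, Dcxr, Ccng1 and Trp53inp1.

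Of the 14 apoptosis genes, 6 rose and 8 did not pass the test, and the group's median log2 fold change was 0.49. Its largest change was in Eda2r, a receptor of the tumour necrosis factor receptor family that binds ectodysplasin A2. Eda2r (Entrez 245527, chrX:97333841-97377209, mm10, minus strand) was at 6.87 to 16.5 CPM in control pools (median 12.7) and at 21.9 to 33.8 CPM in cKO pools (median 29.2). No cKO pool reached down to the controls, and control pool 1, with high Xist, had the lowest value of all 12. The change was 2.36-fold (log2 fold change 1.24 ± 0.18 SE, edgeR, adjusted p = 0.000861), and in the 8 libraries with low Xist the log2 fold change was 1.02 ± 0.14 (adjusted p = 0.00257).

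The classical death receptors did not pass in the main test. Fas, the receptor for Fas ligand, was at 1.24 to 2.44 CPM in control pools (median 1.79) and at 2.13 to 2.99 CPM in cKO pools (median 2.79), from 12 to 156 reads per library. In 5 cKO pools the level exceeded the highest control, but edgeR gave a log2 fold change of 0.55 ± 0.18 (SE) with an adjusted p of 0.0723, while DESeq2 gave 0.0465. For Tnfrsf10b, the mouse TRAIL receptor, the log2 fold change was 0.25 ± 0.09 (SE, edgeR, adjusted p = 0.0947).

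The BH3-only and mitochondrial genes were divided. Bbc3, encoding PUMA, a BH3-only protein that neutralises the Bcl-2 survival proteins, was at 2.22 to 3.01 CPM in control pools (median 2.5) and at 3.90 to 6.65 CPM in cKO pools (median 4.91), with no overlap. It rose 1.99-fold (log2 fold change 0.99 ± 0.16 SE, edgeR, adjusted p = 0.0015) on 16 to 384 reads per library. Pmaip1, encoding the related protein NOXA, was at 49.4 to 89.5 CPM in control pools (median 82.1) and at 84.6 to 116 CPM in cKO pools (median 107). Here cKO pools 1 to 4 were above all controls, whereas cKO pools 5 and 6, the highest of all for Cdkn1a, were at 88.5 and 84.6 CPM and so within the control range. Its log2 fold change of 0.46 ± 0.14 (SE) did not pass the edgeR test over all libraries (adjusted p = 0.0613) but did with DESeq2 (adjusted p = 0.0277) and with edgeR in the 8 low-Xist libraries (log2 fold change 0.48, adjusted p = 0.0433). Bax, the pore-forming effector of the mitochondrial pathway, and Apaf1, the apoptosome scaffold, had log2 fold changes of 0.23 (edgeR, adjusted p = 0.155) and -0.03 (edgeR, adjusted p = 0.817). Perp, a membrane protein of desmosomes linked to p53-dependent death, was low (0.691 to 3.35 CPM), and its log2 fold change of 0.77 ± 0.29 (SE) did not pass (edgeR, adjusted p = 0.114).

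The other called genes of the apoptosis group were Zmat3, Trp53inp1, Pidd1 and Ei24. Zmat3, an RNA-binding zinc finger protein, was among the most uniform: control pools lay at 26.3 to 42.5 CPM (median 37.6) and cKO pools at 55.2 to 65.8 CPM (median 61.5), without overlap, and the change was 1.68-fold (log2 fold change 0.75 ± 0.10 SE, edgeR, adjusted p = 0.000481). Trp53inp1, a nuclear protein that promotes p53 phosphorylation and autophagy, was at 85.2 to 147 CPM in control pools (median 98.1) and at 114 to 201 CPM in cKO pools (median 145). Only cKO pools 4, 5 and 6 exceeded the highest control, pool 5, and the log2 fold change of 0.55 ± 0.16 (SE) was the closest to the threshold of the 10 (edgeR, adjusted p = 0.0444). Pidd1, the death-domain scaffold that activates caspase-2, was at 7.50 to 13.7 CPM in control pools (median 12.9) and at up to 20.2 CPM in cKO pools (median 16.6), all of which lay above the controls (log2 fold change 0.52 ± 0.14 SE, edgeR, adjusted p = 0.0332). Ei24, an endoplasmic reticulum protein first found as induced by etoposide, had the smallest change of the 10, from 88.3 to 100 CPM in control pools (median 93.6) to 103 to 115 CPM in cKO pools (median 110). Although the log2 fold change was 0.22 ± 0.06 (SE, edgeR, adjusted p = 0.027), the ranges did not overlap.

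Phlda3, a repressor of Akt signalling, had the most negative value of the members. It was at 24.0 to 32.9 CPM in control pools (median 29.0) and at 21.8 to 27.9 CPM in cKO pools (median 24.2), and the groups overlapped (log2 fold change -0.21 ± 0.09 SE, edgeR, adjusted p = 0.143). Aen, a nuclease active in apoptosis, stood at 0.16 on the log2 scale relative to control (edgeR, adjusted p = 0.416).

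None of the 5 repair genes passed the test. Rrm2b, the p53-inducible subunit of ribonucleotide reductase, had a log2 fold change of 0.31 ± 0.12 (SE, edgeR, adjusted p = 0.117), with its highest values, 23.9 and 23.0 CPM, in cKO pools 5 and 6. Polk (a translesion polymerase), Xpc (damage recognition in nucleotide excision repair) and Ercc5 (the excision repair nuclease XPG) had log2 fold changes between -0.05 and 0.10, with edgeR adjusted p from 0.575 to 0.822.

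Ddb2, encoding a subunit of the ultraviolet damage sensor, was set apart by a pair of pools. It was at 56.2 CPM in cKO pool 5 and 48.3 CPM in cKO pool 6, and at 15.3 to 22.6 CPM in the other 10 pools of either group. The log2 fold change was 0.62 ± 0.31 (SE, edgeR, adjusted p = 0.226) over all libraries and -0.10 (adjusted p = 0.583) without those pools. These were the pools with high Stra8, and of 19 genes acting upstream of p53, 5 (Atm, Atr, Mdc1, Mre11a and Cdkn2a) were also highest in both, 1 (Chek2) was lowest in both and 13 were neither. Of the called members, all but Zmat3 and Pidd1 were also highest in both of these pools. Of the other members, the same held for Rrm2b and the untested Trp73, and Xpc was lowest in both. The share of all genes with these patterns was not computed. Atm, the kinase activated by double-strand breaks, was at 190 and 177 CPM there and at 87.4 to 107 CPM elsewhere. Mdc1, which reads the damage mark on chromatin, was at 273 and 245 CPM in those pools and at 116 to 173 CPM elsewhere. The summed level of the 5 meiotic markers (Stra8, Sycp3, Sycp1, Dmc1 and Rec8) was 527 and 514 CPM in these pools and 99.7 to 274 CPM in the others. Their part in the Ddb2 values was not tested.

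**Figure D3:**
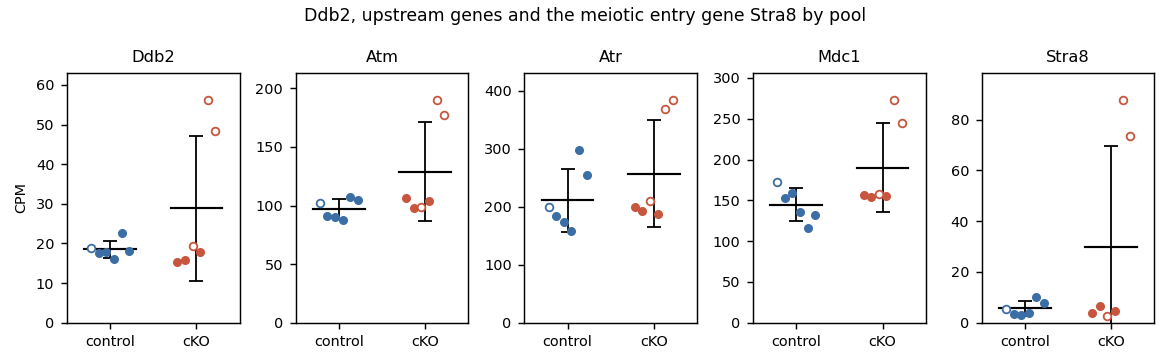
CPM of Ddb2, of the damage response genes Atm, Atr and Mdc1, and of the meiotic entry gene Stra8, with 1 point per pool (6 control, blue; 6 cKO, orange), open points for libraries with Xist above 100 CPM, and black lines for the mean and SD, drawn down to 0 at most. In each panel cKO pools 5 and 6 lie above the other 10 pools.

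Of the 4 metabolism genes, 2 rose. Sesn2, a stress-inducible inhibitor of mTORC1, was at 10 to 23.1 CPM in control pools (median 20) and at 24.9 to 33.5 CPM in cKO pools (median 28.4), without overlap, a 1.54-fold change (log2 fold change 0.62 ± 0.16 SE, edgeR, adjusted p = 0.0275). Dcxr, encoding dicarbonyl and L-xylulose reductase, was at 2.75 to 3.46 CPM in control pools (median 3.10) and at 3.37 to 8.55 CPM in cKO pools (median 4.92). The lowest cKO pool, number 2, fell within the controls, and cKO pools 5 and 6 were the highest. Its change was 1.69-fold (log2 fold change 0.76 ± 0.20 SE, edgeR, adjusted p = 0.0286). Sesn1, the paralogue of Sesn2, and Tigar, a fructose bisphosphatase that diverts glucose from glycolysis, had log2 fold changes of -0.07 (edgeR, adjusted p = 0.655) and 0.09 (edgeR, adjusted p = 0.478).

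**Figure D4:**
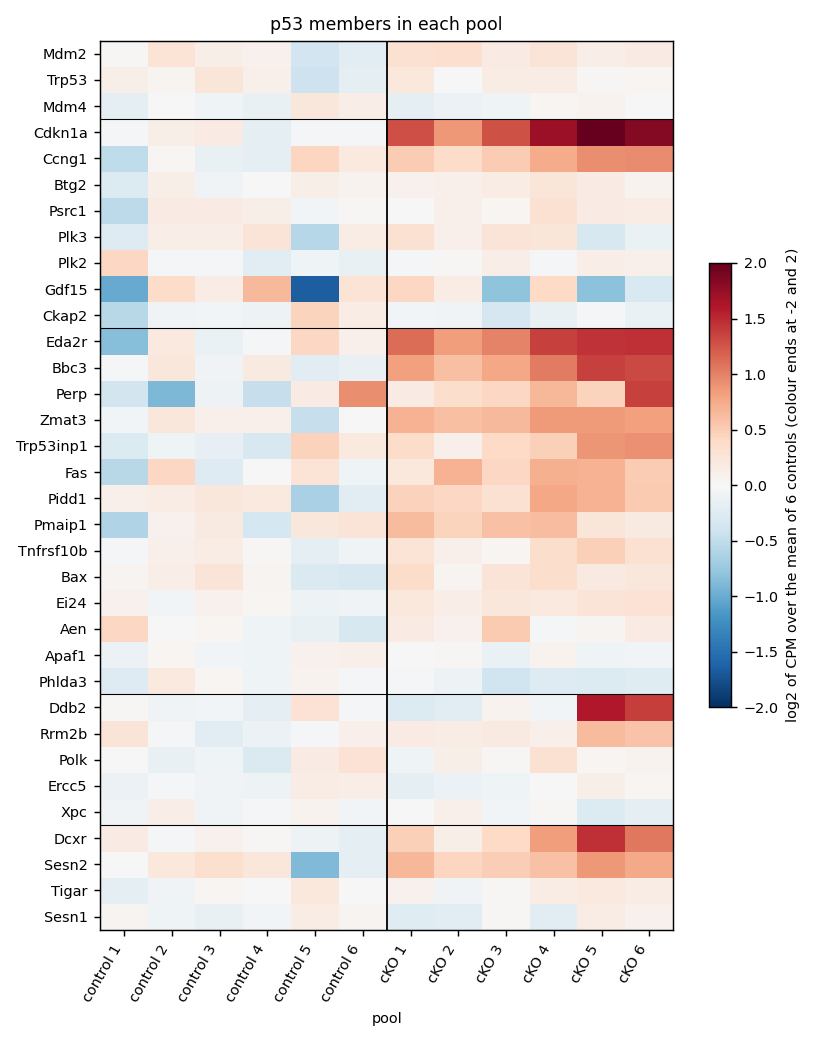
Log2 ratio of CPM to the mean of the 6 control pools for the 34 tested p53 genes (rows, grouped by role as regulators, arrest, apoptosis, repair and metabolism) in each of the 12 pools (columns). Ratios are 0.597 or higher in all 6 cKO pools for Cdkn1a, Eda2r, Bbc3 and Zmat3 and above 0 in all 6 for others such as Ccng1, Sesn2, Pidd1 and Ei24, and Ddb2 is strongly red in cKO pools 5 and 6 (1.60 and 1.39), with at most 0.29 in the others.

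Calls differed in how far they rested on single libraries. Cdkn1a, Eda2r, Bbc3 and Zmat3 passed under each of the 22 alternative settings tried, which included leaving out every library in turn. Ccng1 passed in 20 of them, Pidd1 and Sesn2 in 14, Dcxr in 13, Ei24 in 12 and Trp53inp1 in 10. With 1 library left out, the number of members called fell from 10 to 6 without control pool 6, cKO pool 1 or cKO pool 5 and to 5 without cKO pool 4 or cKO pool 6. In the 8 libraries with low Xist, 5 members rose (Bbc3, Cdkn1a, Eda2r, Pmaip1 and Zmat3), while 3.68% of all genes were called higher there. Without cKO pools 5 and 6, 4 members rose (Bbc3, Cdkn1a, Eda2r and Zmat3), against 2.27% of all genes. Fold changes were smaller in these subsets for most of the called genes: that of Cdkn1a was 1.33 on the log2 scale in the 8 libraries and 1.32 in the 10, and that of Trp53inp1 was 0.28 and 0.35. Pidd1, at 0.56 and 0.49, remained near its value over all libraries but did not pass (edgeR, adjusted p = 0.0764 and 0.11). Ei24, at 0.20 and 0.19 (edgeR, adjusted p = 0.113 and 0.118), and Sesn2, at 0.54 and 0.53 (adjusted p = 0.121 and 0.117), did not pass either.

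The cKO pools differed among themselves. The number of the 10 called genes above the highest control was 9, 7, 9, 10, 10 and 10 in cKO pools 1 to 6. In the same order the median log2 ratio of these genes to the control mean was 0.58, 0.42, 0.50, 0.81, 0.90 and 0.93, against -0.09 to 0.14 in the control pools, and these values describe genes chosen on the same pools. Nr2f2 stood at 78.9, 119, 75.4, 78.8, 50.2 and 53.6 CPM in cKO pools 1 to 6. Pool 2, with the most Nr2f2, had the lowest Cdkn1a of the cKO pools, and pools 5 and 6, with the least Nr2f2, had the highest. Those last pools are also the ones with high Stra8 and high Xist, and the parts of these features in the differences between pools were not tested.

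**Figure D5:**
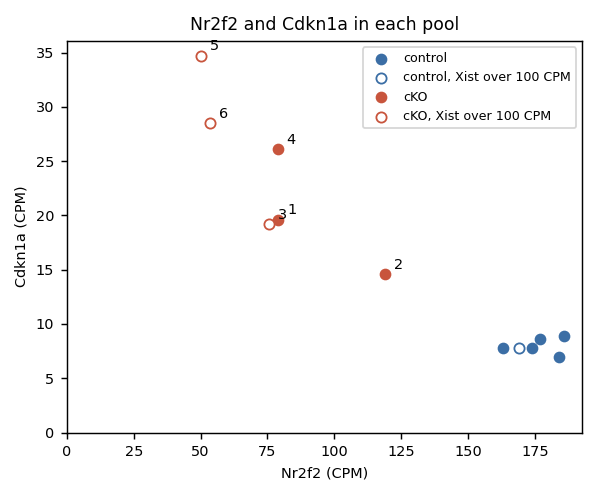
Cdkn1a against Nr2f2, both in CPM, in the 6 control (blue) and 6 cKO (orange, numbered) pools, with open points for libraries with Xist above 100 CPM. Control pools cluster at 6.97 to 8.93 CPM of Cdkn1a, and cKO pools run from 14.6 CPM in pool 2 to 34.7 CPM in pool 5.

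Other genes of the pathway, 60 in all, mostly did not pass the same test: 3 rose and 5 fell, that is 5% and 8.33% of them, beside 3.28% and 4.85% of all genes, so these shares are not read as a result about the lists. Of 19 genes acting upstream of p53, only Rad50, part of the complex that senses double-strand breaks, rose (log2 fold change 0.30 ± 0.06 SE, edgeR, adjusted p = 0.00997). It was at 92.7 to 107 CPM in control and 112 to 135 CPM in cKO pools, which did not overlap. In that list Atm had the highest log2 fold change (0.41, edgeR adjusted p = 0.149) and Nbn, of the same complex as Rad50, the lowest (-0.19, edgeR adjusted p = 0.319).

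Among 15 further p53 targets, 1 rose and 2 fell. Ak1, adenylate kinase 1, was at 6.07 to 7.97 CPM in control and 10.6 to 12.7 CPM in cKO pools, without overlap (log2 fold change 0.71 ± 0.10 SE, edgeR, adjusted p = 0.000503). Ephx1, a microsomal epoxide hydrolase, fell from 53 ± 14.9 to 32.5 ± 8.79 CPM (SD, n = 6; edgeR, adjusted p = 0.0437). Cd82, a tetraspanin, fell from 38.1 ± 4.46 to 27.4 ± 2.60 CPM (edgeR, adjusted p = 0.00519). Lif, a cytokine, had the highest value of the list, 1.04 ± 0.31 (SE) on the log2 scale, and did not pass (edgeR, adjusted p = 0.0558).

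Of 16 other apoptosis genes, Bcl2l11 rose and Hrk fell, both of which encode BH3-only proteins. Bcl2l11, encoding BIM, went from 30.3 to 35.9 CPM in control pools to 41.5 to 56.0 CPM in cKO pools (log2 fold change 0.54 ± 0.08 SE, edgeR, adjusted p = 0.00118). Hrk was at 2.49 ± 0.63 CPM in control and 1.06 ± 0.61 CPM in cKO pools (SD, n = 6; log2 fold change -1.25 ± 0.31 SE, edgeR, adjusted p = 0.0228). Of 10 proliferation genes 2 fell (4.85% of all genes did) and 1 had a positive fold change (50.6% of all genes did). In the 8 libraries with low Xist 3 fell, as did 529 of all 15586 genes tested there. Without cKO pools 5 and 6, 0 passed, and the log2 fold changes of Birc5 and Cdk1 were -0.37 (edgeR, adjusted p = 0.0539) and -0.41 (adjusted p = 0.133). Birc5, encoding survivin, was at 54.2 to 81.4 CPM in control and 50.5 to 54.1 CPM in cKO pools (log2 fold change -0.37 ± 0.08 SE, edgeR, adjusted p = 0.0115). Cdk1, the mitotic kinase, had a log2 fold change of -0.40 ± 0.12 (SE, edgeR, adjusted p = 0.0492) with groups that overlapped. Ccna2, encoding cyclin A2, had the same fold change to 2 decimals and did not pass (edgeR, adjusted p = 0.0659), and Bub1, a spindle checkpoint kinase, had the highest value, 0.02. Ak1, Cd82 and Bcl2l11 passed in all 22 alternatives, Birc5 in 21, Rad50 in 20, Hrk in 14, Ephx1 in 11 and Cdk1 in 4.

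Markers of several cell types also differed between the groups. Over all libraries, 3.28% of all genes tested were called higher and 4.85% were called lower. Of 5 fetal Leydig cell markers 4 fell, as they did in the 8 libraries with low Xist, and 3 fell without cKO pools 5 and 6. Their summed level was 1560 to 2910 CPM in control and 841 to 1750 CPM in cKO pools. Macrophage markers, of which Cx3cr1 and Csf1r rose among 5 and in both subsets, summed to 30.0 to 40.9 CPM in control and 44.4 to 55.6 CPM in cKO pools. Of 5 markers of mesonephric epithelium Pax8 and Lhx1 rose over all libraries, and neither passed in a subset (edgeR, adjusted p = 0.0808 and 0.107 in the 8 libraries, 0.147 and 0.0858 in the 10), although the log2 fold changes were of like size in the 3 fits (0.47, 0.42 and 0.45 for Pax8, and 0.85, 0.86 and 0.91 for Lhx1). The sums of these markers were 6.66 to 13.2 CPM in control and 13.9 to 19.3 CPM in cKO pools. The interstitial marker Tcf21 fell in all 3 fits, and the red blood cell gene Hbb-bs fell over all libraries, with log2 fold changes of -0.47 there, -0.45 in the 8 (edgeR, adjusted p = 0.0692) and -0.43 in the 10 (adjusted p = 0.0571).

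Ovarian and germ cell markers depended on which libraries were used. Over all libraries 1 of 5 ovarian genes, Wnt4, fell, and it fell in both subsets too. In the 8 libraries with low Xist 3 others rose, namely Foxl2 (log2 fold change 1.45, edgeR adjusted p = 0.00958), Fst (0.62, adjusted p = 0.0216) and Bmp2 (0.67, adjusted p = 0.0379). Of 5 germ cell markers, Nanos2 alone passed in the 8 libraries (log2 fold change 0.37, edgeR adjusted p = 0.032). The other germ cell markers ran there from -0.19 (Dppa3) to 0.25 (Pou5f1). None of the 5 passed over all libraries or without cKO pools 5 and 6. No Sertoli, meiotic or endothelial marker passed in any of the 3 fits, and the part of these marker shifts in the p53 gene values was not tested.

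To compare levels between the genes, CPM were divided by the length of the longest GENCODE basic transcript of each gene. The levels and their order rest on that choice of length. In control pools Trp53 had the highest level of the members, 47.6 ± 7.45 CPM per kb (SD, n = 6), followed by Mdm4 at 43.4 ± 4.91, Bax at 42.9 ± 6.67 and Ei24 at 40.8 ± 2.27 CPM per kb. Neighbours in the order overlapped in their control ranges in 32 of 34 cases, so the exact rank of most genes cannot be read from these pools. Cdkn1a was at rank 25 of 35 in control pools with 3.84 ± 0.34 CPM per kb, and reached 11.4 ± 3.53 CPM per kb in cKO pools. Eda2r went from 2.60 ± 0.68 to 6.05 ± 1.06 and Bbc3 from 1.42 ± 0.18 to 2.87 ± 0.62 CPM per kb. Cdkn1a, Eda2r and Bbc3, which had the largest fold changes, were thus in the lower part of the order. The other called genes were spread through it. Ei24 was at rank 4, Ccng1 at 8, Trp53inp1 at 10, Sesn2 at 20, Zmat3 at 23, Pidd1 at 27 and Dcxr at 28. Perp (0.662 CPM per kb) and Trp73 (0.03 CPM per kb) were the least abundant.

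RefSeq promoter windows (GRCm38.p6; 250 bases before to 50 after each start) were given for 27 members and not for Pmaip1, Tnfrsf10b, Perp, Zmat3, Trp53inp1, Rrm2b, Xpc and Ddb2. The canonical p53 half-site, 10 bases long and reading the same on both strands so that both are searched at once, was present in the windows of 10 of the 27 members (37%) and of 9.55% of all 27025 genes. By window it was present in 11 of 37 (29.7%), against 8.36% of all 32851 windows, with 1 half-site of Aen counted in both of its overlapping windows. A full site, with 2 half-sites at most 13 bases apart, was present in 24 of all windows (0.0731%), and Cdkn1a was the one member that had it. Half-sites were found in Trp53, Mdm2, Cdkn1a, Ccng1, Ckap2, Bax, Aen, Ei24, Polk and Sesn1, of which Cdkn1a, Ccng1 and Ei24 were called higher, whereas the windows of Eda2r, Bbc3, Dcxr, Sesn2 and Pidd1 held none. A match to these letters is a description of the sequence and not a binding site. The half-sites of the other called genes and of the uncalled core targets Mdm2 and Bax are shown in capitals with the 20 bases before them and, where the start allows, 20 bases after, 5′ to 3′ on the strand of the gene. They begin at 185 (Ccng1), 10 (Ei24), 186 (Mdm2) and 201 (Bax) bases before the start and lie at chr11:40755462-40755471, chr9:36797335-36797344, chr10:117710935-117710944 and chr7:45467090-45467099, all on the minus strand.
Ccng1: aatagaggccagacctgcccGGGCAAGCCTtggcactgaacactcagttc
Ei24: ccagctgccccgtgcggcccGGGCATGCCC
Mdm2: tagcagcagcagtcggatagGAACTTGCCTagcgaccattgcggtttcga
Bax: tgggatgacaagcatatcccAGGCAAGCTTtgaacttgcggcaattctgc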

How the data were processed

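Libraries were made with the TruSeq Stranded mRNA kit from whole testes, 3 per pool, 6 pools per genotype. The submitters' processing notes name Trim Galore 0.6.7, STAR 2.5, featureCounts (Subread 1.5.0-p1) and mm10, and the authors deposited raw counts per gene, whole numbers with no normalization, as 1 table. Every sample column was used (0 were left out). From these counts, edgeR 4.0.16 in R 4.3.3 gave TMM-scaled CPM and the main test: filterByExpr (minimum count 10, minimum total 15), quasi-likelihood fit of genotype without covariates, and Benjamini-Hochberg adjustment over all 15572 genes kept, at 0.05. SE is the log2 fold change divided by the square root of F, and 95% intervals use the t distribution of the fit. Alternatives were RLE and upper quartile scaling, no filter, 1 CPM in 6 libraries, DESeq2 1.42.0 (the tool of the study, in another version), limma-voom 3.58.1, a replicate block, Xist as covariate, the 8 libraries with Xist under 100 CPM, and each library left out. Leaving out cKO pools 5 and 6 together was added after seeing the data. The members, lists and alternatives were chosen with earlier results of these data known. Genes named with values by pool were Trp53, Mdm2 and Cdkn1a, members that passed, did not overlap or changed call with DESeq2 or in the 8 libraries, and the 2 members at each end of the fold changes, together with the passing and extreme genes of each other list. Ddb2, Atm and Mdc1 were added after their values were seen. On counts simulated from these libraries (15572 genes), edgeR recovered 85 of 100 genes changed by 1 and 41 of 100 changed by 0.5 on the log2 scale, with 6 false calls. In that simulation the pools varied independently for each gene. It thus held no pools set apart in many genes, as those with high Xist or Stra8 are, and its rates do not cover that case. Pools of 1 group differed by more than counting error in every pair (chi-square per degree of freedom 2.45 to 104). The labels do not say that pools came from separate litters, so p-values measure the spread between these pools. Plk3, Zmat3 and Ddb2 overlap another gene on the opposite strand only, and the kit keeps strand.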

Additional observations from a re-analysis of the deposited data

Results flagged for a closer look

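In 4 of 68 member and group combinations 1 pool lay far from the other 5 of its group by Dixon's criterion, which chance meets in about 1 in 20 groups. Plk2 was highest in control pool 1, at 56.4 CPM against 41.5 CPM in the next pool. Psrc1 was lowest in the same pool, at 15 CPM against 20.8 CPM. Perp was highest in cKO pool 6, at 3.35 CPM against 2.05 CPM, and Aen was highest in cKO pool 3, at 34.8 CPM against 27.0 CPM. Each of these pools is among the 4 with Xist above 100 CPM, and none of the 4 genes was called over all libraries.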

How the results depend on the processing

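The count of p53 members called, 10 over all libraries, was 12 with DESeq2 and with limma-voom, 5 in the 8 libraries with low Xist and 4 without cKO pools 5 and 6. Leaving out 1 library at a time gave 5 to 13, with 6 without control pool 6, cKO pool 1 or cKO pool 5, 5 without cKO pool 4 or cKO pool 6, and 13 without control pool 1, where Phlda3 was called lower. These fits hold fewer samples. Calls over all genes, 1266, were 1919 with DESeq2, 733 without cKO pools 5 and 6, and 816 (without cKO pool 4) to 3106 (without control pool 1) with 1 library left out. Of the other pathway genes 8 were called over all libraries, 3 without cKO pools 5 and 6, and 5 to 19 with 1 library left out: 19 without control pool 1 and 5 without control pools 4 or 6 or cKO pools 3 or 6. Why was not tested.

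Same-numbered pools did not vary together (correlations of -0.33 to 0.24, best with the own number in 0 of 6), so the numbers do not pair the pools. A replicate block gave 931 calls over all genes and 6 members.

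A change of sign occurred only in members that were not called. In the 8 libraries, log2 fold changes became 0.16 (Gdf15), 0.0188 (Apaf1), 0.0336 (Xpc) and -0.16 (Ddb2). Without cKO pools 5 and 6, they became 0.11 (Gdf15), 0.0236 (Xpc) and -0.10 (Ddb2). With Xist as a covariate, they became -0.0208 (Plk2), 0.21 (Gdf15) and 0.0111 (Apaf1), and with limma-voom Gdf15 was at 0.047. With 1 library left out, Gdf15 ranged from -0.21 to 0.14, Apaf1 from -0.0491 to 0.0007, Mdm4 from -0.0828 to 0.0096 and Ercc5 from -0.0567 to 0.0097. The cause was not tested.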

Other observations

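The noncoding RNA gene Trp53cor1, known as lincRNA-p21, was chosen after its values were seen. It lies at chr17:29057474-29079126 (mm10, minus strand), before Cdkn1a on the opposite strand, and is known as a p53 target that acts on Cdkn1a. It was at 0.651 to 0.942 CPM in control pools and at 0.926 to 2.04 CPM in cKO pools, 5 of which lay above all controls. Its log2 fold change was 1.10 ± 0.20 (SE; edgeR, adjusted p = 0.00407), and it was called in 21 of 22 alternatives and was not tested in the other, a filter at 1 CPM in 6 libraries.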
